A study of Mus musculus with 2 samples.

Results

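HCN channels are the pacemaker channels of excitable cells, and Pex5l encodes the accessory subunit TRIP8b that binds their tails. The 4 genes described here are Hcn2, Hcn3, Hcn4 and Pex5l, chosen by symbol out of the 31053 Ensembl genes counted in 2 single-nucleus RNA sequencing (snRNA-seq) libraries of the mouse olfactory bulb. All 4 were found in both libraries. The first library held nuclei of an adult mouse whose anterior olfactory nucleus (AON) had been injected with retroAAV-CAG-H2B-GFP, and the second held nuclei of an adult mouse injected with the same virus in the posterior piriform cortex (pPCx). Both animals were wild type by their labels, and the methods give a single female C57Bl/6 mouse for the pPCx library and do not describe the AON library. The virus enters axon endings and the ubiquitous CAG promoter drives a nuclear green fluorescent protein, so the sort by fluorescence-activated nuclei sorting (FANS) collected any bulb nucleus that carried the reporter and was not restricted to 1 cell type. Each injection site has 1 library, so no test between sites was possible. Every interval is a 95% exact interval that covers counting error only, and every difference is between these 2 libraries or between nuclei of 1 library.

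HCN channels open when the membrane becomes more negative and carry a depolarising inward current, Ih, which sets resting potential and the timing of repetitive firing. Their subunits form tetramers, and cyclic AMP binds inside the cell and eases their opening, strongly for HCN2 and HCN4 and weakly for HCN3. TRIP8b exists in several forms that differ at the start of the protein, binds the last residues of an HCN subunit, and sets how many channels reach the membrane and how they respond to cyclic AMP. In the bulb, mitral cells (MCs) are known to differ from each other in the size of Ih.

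The last 30 bases of the coding sequence are printed because this end of the HCN subunits is where TRIP8b binds, which ties the channel genes to Pex5l. Each is printed from 5′ to 3′ on the coding strand of GRCm38 with GENCODE M21 exon limits, and the capitals mark the last 3 codons before the stop codon, all in exon 8.
Hcn2: gcgcgctcgcgcctctctTCCAACTTGtga
Hcn3: agaggtccccaaatttctGCCAACATGtga
Hcn4: gtacgctccaaactgccgTCTAATTTAtga
Of the 9 bases in capitals, Hcn3 shared 7 with Hcn2 and Hcn4 shared 6. These base counts do not rank the protein ends. The capitals of Hcn2 and Hcn4 encode the same residues (serine, asparagine, leucine), and those of Hcn3 encode alanine, asparagine and methionine. Over all 30 bases, 17 (Hcn3) and 18 (Hcn4) were identical to Hcn2.

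The genes lie on 3 chromosomes. Hcn2 (ENSMUSG00000020331) spans chr10:79716634-79736108 on the plus strand and Hcn4 (ENSMUSG00000032338) spans chr9:58823412-58863175 on the plus strand, and neither overlaps another annotated gene. Hcn3 (ENSMUSG00000028051) spans chr3:89146074-89160196 on the minus strand and overlaps Pklr on the opposite strand. Pex5l (ENSMUSG00000027674) spans chr3:32949408-33143247 on the minus strand, 194 kb with 9 coding transcripts and 6 coding starts, and 2 counted antisense genes, Gm37459 and 4930419G24Rik, lie in the same interval on the plus strand. Whether the counting used strand is not given in the sources used here, so reads of Pex5l and of these antisense genes may not be fully separated.

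Nuclei with at least 1000 genes were kept, which left 102 of 188 AON nuclei and 63 of 74 pPCx nuclei, with median depths of 22267 and 31581 unique molecular identifiers (UMIs), and the libraries shared 0 cell barcodes. Projection neurons (PNs) were nuclei with more UMIs of Slc17a7, Slc17a6, Tbx21 and Cdhr1 than of Gad1, Gad2 and Slc32a1. GABAergic nuclei were the reverse with at least 3 UMIs, and the remaining nuclei were divided by glial markers. The AON library held 25 PNs, 47 GABAergic nuclei, 9 oligodendrocyte nuclei, 18 astrocyte nuclei and 3 others, whereas the pPCx library held 59 PNs, 2 GABAergic nuclei and 2 others. The 6 PN markers summed to 593 counts per 1000000 UMIs (CPM) in AON PNs, 618 CPM in pPCx PNs and 28.3 CPM in AON GABAergic nuclei, and the 7 oligodendrocyte markers to 19789 CPM in the oligodendrocyte nuclei. Of the 25 AON PNs, 8 were called from only 1 or 2 UMIs of the 4 excitatory genes of the rule, and 3 of those held more oligodendrocyte or astrocyte marker UMIs than UMIs of these genes. In the pPCx library 1 PN was called from 1 or 2 such UMIs. The deepest AON PN held 274993 UMIs, and the PNs together 1117466 UMIs (AON) and 2328340 UMIs (pPCx).

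Pex5l stood out among the 4 genes because its UMIs gathered in oligodendrocytes, the myelinating glia. The 9 oligodendrocyte nuclei held 306 Pex5l UMIs, or 1662 CPM (1481 to 1859). AON GABAergic nuclei followed with 180 UMIs and 142 CPM (122 to 164), and AON PNs with 113 UMIs and 101 CPM (83.3 to 122). The lowest levels were in pPCx PNs, with 79 UMIs and 33.9 CPM (26.9 to 42.3), and in AON astrocyte nuclei, with 9 UMIs and 33.1 CPM (15.1 to 62.8). Oligodendrocytes differed from GABAergic nuclei, and AON PNs from pPCx PNs, beyond counting error. The step from GABAergic nuclei to AON PNs was past counting error over all kept nuclei and within it once the deepest nuclei were left out. Astrocytes and pPCx PNs did not differ beyond it, with a ratio of 0.974 (0.430 to 1.95), but 7 of the 9 astrocyte UMIs lay in 1 nucleus, without which the ratio was 0.225 (0.0268 to 0.840). The 2 pPCx GABAergic nuclei held 0 Pex5l UMIs, which allows up to 50.3 CPM.

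**Figure D1:**
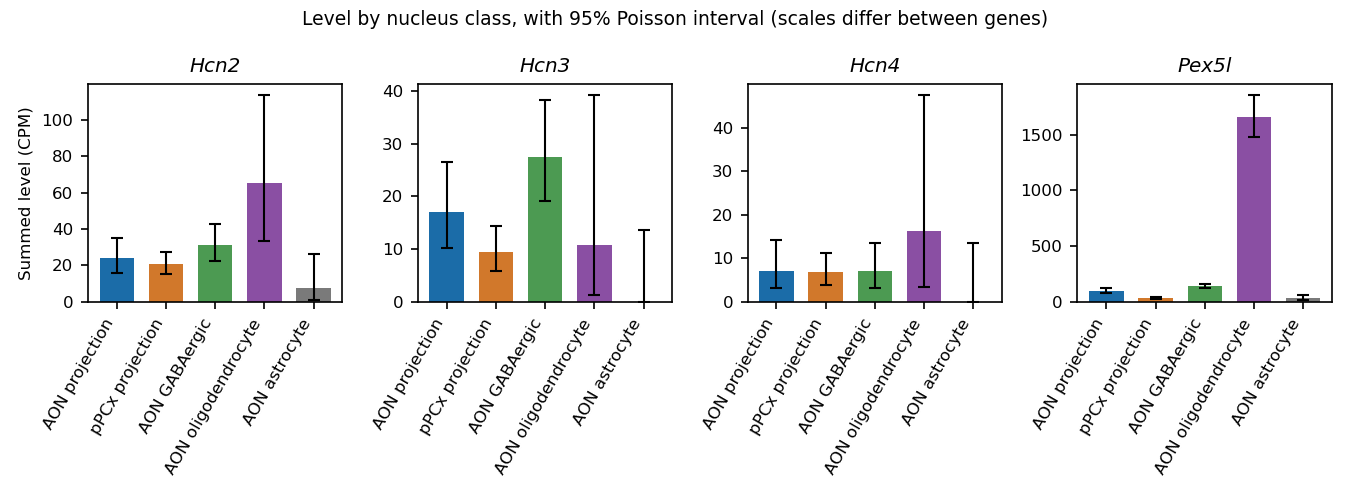
Summed level of each gene in CPM (y axis, a separate linear scale for each gene) in 5 nucleus classes, with bars for the level and whiskers for the 95% exact Poisson interval. Pex5l reached 1662 CPM in the 9 oligodendrocyte nuclei against 142 CPM or less in the other classes shown, whereas the intervals of Hcn4 overlapped in every class.

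Nucleus by nucleus, the oligodendrocytes held 36, 37, 57, 57, 30, 42, 30, 17 and 0 Pex5l UMIs, in order of falling depth from 57654 to 7515 UMIs. In 8 of 9 nuclei the count was thus at least 17, and the ninth held none. That ninth nucleus was also the one with fewest oligodendrocyte marker UMIs, 4, or 532 CPM. It carried 15 UMIs of Meis2, a transcription factor gene of bulb interneurons, and 2 UMIs of the GABAergic genes of the rule. The other 8 held 179 to 1548 marker UMIs. Among the 18 astrocyte nuclei, 16 held no Pex5l UMI and the others held 7 and 2. The nucleus with 7 carried 58 astrocyte marker UMIs and 5 oligodendrocyte marker UMIs, the most of the latter in this class. The nucleus with 2 carried 7 astrocyte marker UMIs, the fewest of the class, 36 Meis2 UMIs and 1 UMI of the GABAergic genes of the rule. Every astrocyte nucleus held Meis2, from 5 to 36 UMIs, so Meis2 does not set interneurons apart from astrocytes here.

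Compared with AON PNs, Pex5l was 16.4-fold higher in oligodendrocyte nuclei (13.2 to 20.6), a log2 ratio of 4.03 with 0.5 UMI added to each sum. Among the 7413 genes with at least 20 UMIs over both sums, 19.6% were at least 2-fold higher in oligodendrocytes and 30.8% at least 2-fold lower. Compared with AON GABAergic nuclei the ratio was 11.7 (9.73 to 14.2), where 17.8% of 7876 genes were at least 2-fold higher in oligodendrocytes, and compared with astrocyte nuclei it was 50.3 (26.1 to 111), where 18.4% of 4121 genes were. Oligodendrocytes held 6.42% of the UMIs of the kept AON nuclei and 50.3% of their Pex5l UMIs. Summed over all kept nuclei without regard to class, the Pex5l level was 212 CPM (195 to 230) for AON and 32.9 CPM (26.0 to 41.0) for pPCx, whose library held 0 oligodendrocyte nuclei.

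**Figure D2:**
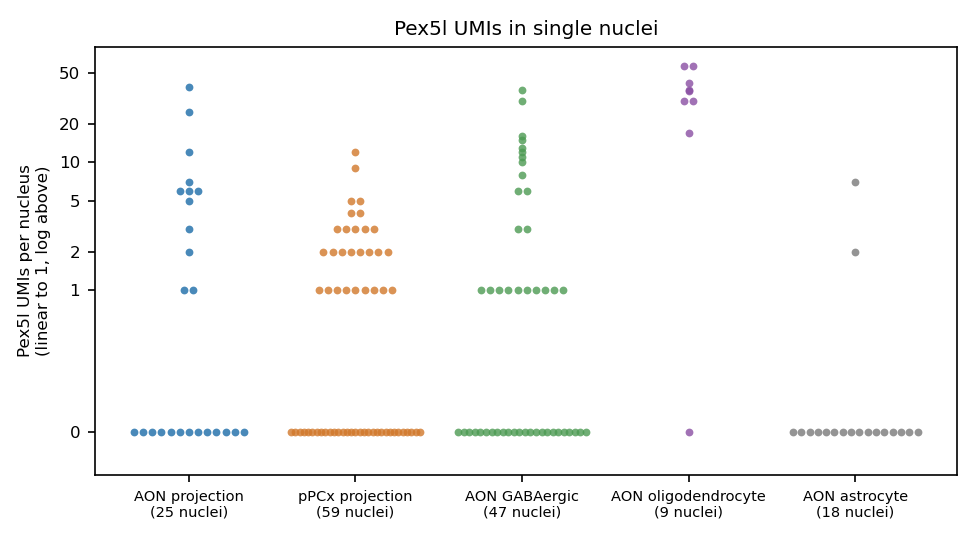
Pex5l UMIs (y axis, linear to 1 and logarithmic above) in each nucleus of 5 classes, with 1 point per nucleus. Of the 9 oligodendrocyte nuclei 8 hold 17 to 57 UMIs, whereas most nuclei of the other classes hold 0 to 12.

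Both antisense genes inside the Pex5l span were also highest in oligodendrocyte nuclei, and among neurons lowest in pPCx PNs. Gm37459 was at 462 CPM (369 to 571) in oligodendrocyte nuclei, 34.9 CPM (24.8 to 47.7) in AON PNs, 44.1 CPM (33.3 to 57.2) in GABAergic nuclei and 9.45 CPM (5.92 to 14.3) in pPCx PNs. 4930419G24Rik was at 592 CPM (486 to 714) in oligodendrocytes, 42.1 CPM (30.9 to 55.9) in AON PNs, 32.3 CPM (23.1 to 43.8) in GABAergic nuclei and 12.9 CPM (8.69 to 18.4) in pPCx PNs. The AON PNs and GABAergic nuclei differed for Pex5l over all kept nuclei, but not beyond counting error once the deepest nuclei were left out. For both antisense genes the separate intervals of these classes overlapped, and no ratio interval is given for them. The part of reads from the opposite strand in the Pex5l counts was not tested.

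Between PNs of the libraries, Pex5l was the only member past counting error when all kept nuclei were summed, and Hcn3 passed it too once the deepest nuclei were left out. It was 2.98-fold higher in AON than in pPCx PNs (2.22 to 4.02), a log2 ratio of 1.57. The background of 11172 genes was 6.66% at least 2-fold higher in AON PNs and 9.82% at least 2-fold higher in pPCx PNs. The difference rested in part on a few nuclei. The 12 AON PNs with Pex5l held 39, 25, 12, 7, 6, 6, 6, 5, 3, 2, 1 and 1 UMIs, so the first pair held 56.6% of the total. In pPCx PNs, 28 of 59 nuclei held a UMI, the highest count was 12 and the next 9. Without the 2 nuclei with most Pex5l UMIs in each library the ratio was 1.83 (1.22 to 2.72), with 49 UMIs against 58 UMIs, which was still past counting error and no longer past 2-fold. Both of the AON nuclei left out held 0 Tbx21 UMIs, as did other AON PNs. They carried Slc17a6, the second vesicular glutamate transporter gene, at 16 and 4 UMIs, and the transcription factor gene Ebf1 at 26 and 24 UMIs. Another AON PN held 15 Slc17a6 and 83 Ebf1 UMIs but only 5 Pex5l UMIs. The 2 nuclei left out held 36 and 24 UMIs of the excitatory genes of the rule, 4 and 3 oligodendrocyte marker UMIs, and 11 and 24 astrocyte marker UMIs. One further AON PN, with 6 Pex5l UMIs in 10664 UMIs, held 1 UMI of the excitatory genes of the rule and 21 oligodendrocyte marker UMIs. Requiring a margin of 3 marker UMIs for the class gave 2.95 (2.18 to 4.00). Summed over the class, the 7 oligodendrocyte markers stood at 130 CPM in AON PNs and 74.3 CPM in pPCx PNs, with Mog and Opalin at 0 in AON PNs and Mobp and Mag at 0 in pPCx PNs, and the part of oligodendrocyte RNA in the difference was not tested.

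**Figure D3:**
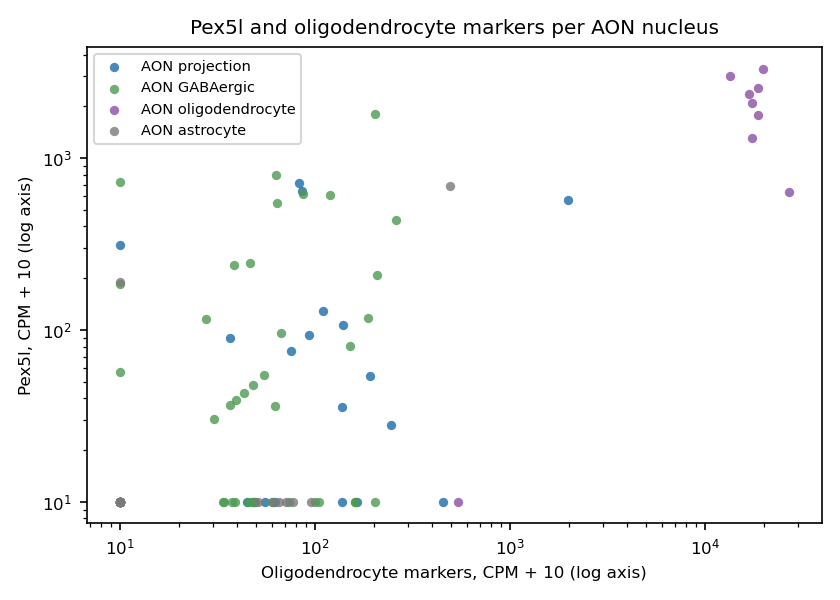
Pex5l (y axis) against the summed oligodendrocyte markers (x axis) in each AON nucleus, both as CPM plus 10 on logarithmic axes and coloured by class. The 8 oligodendrocyte nuclei with Pex5l stand apart at over 10000 CPM of markers, while the 2 PNs and the 3 GABAergic nuclei with most Pex5l per UMI lie below 200 CPM of markers. A further PN at 563 CPM of Pex5l lies at 1969 CPM of markers.

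Within the AON library, Pex5l was 1.40-fold higher in GABAergic nuclei than in PNs (1.10 to 1.79). Without the deepest nucleus of each class the ratio of PNs to GABAergic nuclei was 0.838 (0.648 to 1.08), within counting error, and without nuclei over 3 times the median depth 0.848 (0.657 to 1.09). None of the 3 members with at least 20 UMIs in this comparison passed 2-fold, where 15.2% of 9808 genes were at least 2-fold higher in PNs and 16.1% at least 2-fold higher in GABAergic nuclei. In GABAergic nuclei Pex5l was again uneven. A UMI was found in 23 of 47 nuclei, 10 of which held exactly 1, and the highest counts were 37 and 30 UMIs. The nucleus with 37 had 3 GABAergic marker UMIs, the minimum of the rule, beside 4 oligodendrocyte and 7 astrocyte marker UMIs, and the nucleus with 30 had 21, 2 and 4. Compared with all 30 remaining nuclei, Pex5l was 6.49-fold lower in PNs (5.22 to 8.12), against a background of 23.4% of 8579 genes at least 2-fold lower and 18.2% at least 2-fold higher in PNs. Astrocytes taken alone were the opposite, 3.06-fold below PNs (1.56 to 6.86; a ratio of astrocytes to PNs of 0.0755 without the astrocyte with 7 UMIs), in a comparison where 21.6% of 7894 genes were at least 2-fold below PNs and 24.1% above.

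Shares of nuclei with a UMI depend on depth, and were therefore also computed after thinning each nucleus to 3000 UMIs, which left out none. Pex5l was then found in 87.1% of oligodendrocyte nuclei, 21.1% of GABAergic nuclei, 19.9% of AON PNs, 8.97% of pPCx PNs and 7.64% of astrocyte nuclei. Without thinning these shares were 88.9%, 48.9%, 48.0%, 47.5% and 11.1%. The class medians were 14442 UMIs in oligodendrocytes, 26129 in GABAergic nuclei, 38129 in AON PNs, 34306 in pPCx PNs and 14348 in astrocytes. The share in pPCx PNs at matched depth was close to that in astrocytes of the AON library, and when nuclei were thinned to 10000 UMIs these shares were 24.2% and 12.4%. The astrocyte shares rest on the 2 nuclei with a UMI, and free RNA in the pPCx library, which held no glial class to read it from, was not measured.

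Hcn2, a cyclic AMP-sensitive channel, did not differ between neuron classes beyond counting error. It was found at 24.2 CPM (15.9 to 35.2) in AON PNs from 27 UMIs, at 20.6 CPM (15.2 to 27.3) in pPCx PNs from 48 UMIs, and at 31.5 CPM (22.5 to 42.8) in AON GABAergic nuclei from 40 UMIs. The AON over pPCx ratio in PNs was 1.17 (0.703 to 1.92) and the ratio of AON PNs to GABAergic nuclei 0.768 (0.453 to 1.28), both within counting error. In AON PNs the counts were 10, 4, 4, 2 and 2 UMIs and then 1 UMI in each of 5 nuclei. The 10 UMIs came from the deepest nucleus, which held 37.0% of the total. With each nucleus weighted equally the log2 ratio was -0.78 between AON and pPCx PNs, against 0.24 from the sums, and -1.18 between AON PNs and GABAergic nuclei, past 2-fold, against -0.37 from the sums. No direction is given for either, because no interval was computed under equal weights. The 8 AON PNs called from 1 or 2 excitatory UMIs held 0 Hcn2 UMIs, and each counts in full under equal weights.

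The highest Hcn2 level was in oligodendrocyte nuclei, at 65.2 CPM (33.7 to 114), but it came from 1 nucleus. Of 12 UMIs, 9 were in the nucleus of 17237 UMIs that also held 57 Pex5l UMIs, and 3 other nuclei held 1 each. The ratio to AON PNs was 2.70 (1.24 to 5.51), one of 2 members, with Pex5l, at least 2-fold higher in oligodendrocytes where 19.6% of all genes were. Without the nucleus with most Hcn2 in each class the log2 ratio was 0.014. Astrocyte nuclei held 2 Hcn2 UMIs in 1 of 18 nuclei, 7.35 CPM (0.890 to 26.5). That nucleus was the one with 7 astrocyte marker UMIs and 36 Meis2 UMIs. In order of level, no neighbouring classes differed beyond counting error for Hcn2, but some classes further apart did. Astrocytes were below AON GABAergic nuclei, at a ratio of 0.233 (0.0273 to 0.900), where 21.5% of 8339 genes were at least 2-fold lower. Oligodendrocytes, with 9 of 12 UMIs in 1 nucleus, were above pPCx PNs at 3.16 (1.53 to 6.04) and astrocytes at 8.87 (1.97 to 81.6). In these comparisons 18.1% of 10104 and 18.4% of 4121 genes were at least 2-fold higher. After thinning, the share of nuclei with a UMI was 4.03% in AON PNs, 6.91% in pPCx PNs, 8.95% in GABAergic nuclei and 2.59% in astrocytes, and without thinning it was 40.0%, 42.4%, 42.6% and 5.56%. Both pPCx GABAergic nuclei held Hcn2, with 3 UMIs in all.

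Hcn3, which gives a current that cyclic AMP barely changes, was higher in GABAergic nuclei of the AON library than in pPCx PNs, at 27.5 CPM (19.2 to 38.3) from 35 UMIs against 9.45 CPM (5.92 to 14.3) from 22 UMIs. The ratio was 2.91 (1.66 to 5.21), in a comparison across both library and class where 14.1% of 11501 genes were at least 2-fold higher on the GABAergic side. The difference rested on 1 GABAergic nucleus with 15 of the 35 UMIs, 42.9%, and without it the level was 16.3 CPM and the ratio 1.72 (0.891 to 3.31), within counting error. AON PNs lay between, at 17.0 CPM (10.2 to 26.6) from 19 UMIs. Over all kept nuclei they did not differ beyond counting error from pPCx PNs, with a ratio of 1.80 (0.921 to 3.48). Leaving out the deepest nucleus of each class gave a fold of 2.30 (1.12 to 4.66), past counting error and past 2-fold, and a depth limit of 3 times the class median gave the same value. They did not differ beyond counting error from GABAergic nuclei, with a ratio of 0.618 (0.334 to 1.11). In AON PNs the 11 nuclei with Hcn3 held 4, 3, 2, 2 and 2 UMIs and then 1 each. Without the 2 nuclei with most Hcn3 in each class, AON PNs and GABAergic nuclei stood at a ratio of 0.936 (0.400 to 2.09).

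Few Hcn3 UMIs were found in glial nuclei, whose depth leaves wide limits. No UMI was found in the 18 astrocyte nuclei, which allows up to 11.0 CPM at the floor of 3 UMIs (exact limit 13.6 CPM). In the 9 oligodendrocytes 2 UMIs were found, 10.9 CPM (1.32 to 39.2). The oligodendrocyte level was not below that of pPCx PNs, with a ratio of 1.15 (0.131 to 4.68), and the astrocyte limit also lies above the pPCx level. Astrocytes were below AON GABAergic nuclei beyond counting error, with 0 against 35 UMIs (ratio interval 0 to 0.519). In that comparison 21.5% of 8339 genes were at least 2-fold lower, and 15 of the 35 UMIs lay in 1 nucleus. They were also below AON PNs, with 0 against 19 UMIs (0 to 0.880). Against all remaining AON nuclei, with 2 UMIs, Hcn3 in AON PNs had a ratio of 4.08 (0.984 to 36.1), past 2-fold by its value and within counting error. Leaving out the deepest nucleus of each class put its interval just past 1 (1.01 to 38.0). At 3000 UMIs, a UMI was found in 5.42% of AON PNs, 2.73% of pPCx PNs, 5.84% of GABAergic nuclei, 4.98% of oligodendrocytes and 0% of astrocytes, and without thinning in 44.0%, 25.4%, 25.5%, 22.2% and 0%.

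Hcn4, the main pacemaker channel of the heart, stood at much the same low level in PNs of both libraries and in GABAergic nuclei. AON PNs held 8 UMIs, 7.16 CPM (3.09 to 14.1), pPCx PNs held 16 UMIs, 6.87 CPM (3.93 to 11.2), and GABAergic nuclei held 9 UMIs, 7.08 CPM (3.24 to 13.4). The ratio of AON over pPCx PNs was 1.04 (0.386 to 2.58), an interval that leaves differences of up to 2.58-fold undetectable at this depth. Its UMIs were spread thinly, with at most 2 in any PN, over 7 of 25 AON PNs and 14 of 59 pPCx PNs. All 3 oligodendrocyte UMIs of Hcn4 lay in the ninth nucleus described above, the one without Pex5l, and astrocytes held 0 UMIs. Among the 86 AON barcodes below the filter of 1000 genes, Hcn4 was at 42.3 CPM from 4 UMIs and Hcn2 at 63.4 CPM from 6 UMIs. These were 5.90-fold (1.30 to 22.0) and 2.62-fold (0.886 to 6.49) the AON PN levels, and the part of free RNA in the Hcn2 and Hcn4 UMIs of neurons was not tested. Levels were not compared between genes, because whether intronic reads were counted, and so whether UMIs scale with gene length, is unknown.

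**Figure D4:**
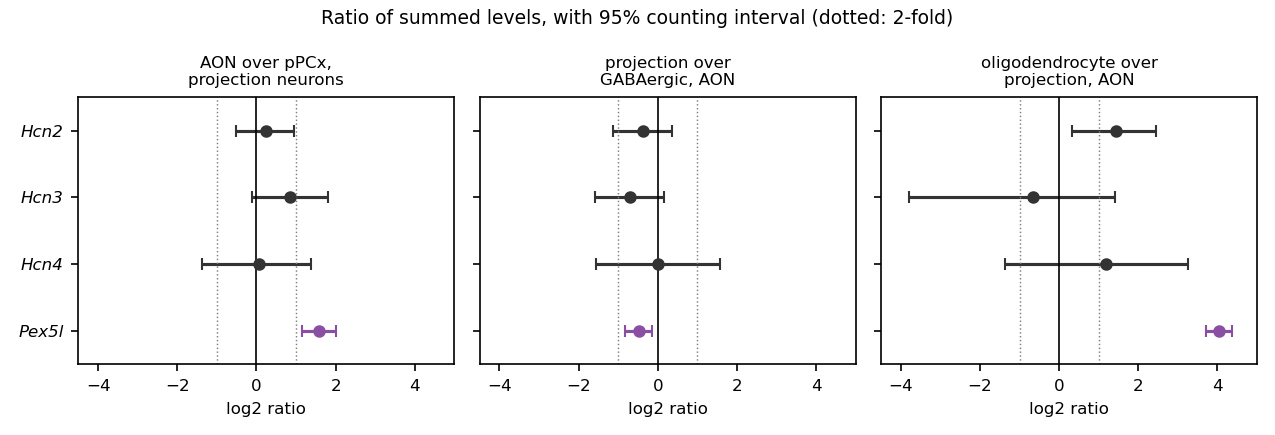
Log2 ratio of summed CPM (x axis) for each gene (y axis) in 3 comparisons, with points for the ratio, whiskers for the 95% counting interval and dotted lines at 2-fold. Pex5l lies to the right of 0 for AON over pPCx PNs and for oligodendrocytes over PNs and to the left of 0 for PNs over GABAergic nuclei, while Hcn3 and Hcn4 cross 0 in all 3 and Hcn2 in the first 2.

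Channel and accessory subunit were not always found in the same nucleus. Of the 25 AON PNs, 15 held a UMI of Hcn2, Hcn3 or Hcn4, 9 held at least 2 of these genes and 4 held all 3. Pex5l was found in 12, together with a channel UMI in 9, and 7 held neither. Of the 59 pPCx PNs, 39 held a channel UMI, 12 held at least 2 of the genes and 3 all of them, and Pex5l was found in 28, with a channel in 18. Nuclei with a channel UMI were deeper, with a median of 55403 UMIs against 8867.5 in the AON PNs without one and 42618 against 23800.5 in pPCx PNs, and the part of depth in these counts was not tested. Among the oligodendrocyte nuclei 8 held Pex5l, and 4 of those held 1 or more channel UMIs.

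Hcn2 levels were also compared between PNs with and without a Pex5l UMI. In AON PNs Hcn2 was at 31.4 CPM in the 12 nuclei with Pex5l (26 UMIs) and 3.45 CPM in the 13 without (1 UMI), a ratio of 9.10 (1.49 to 373). In pPCx PNs it was at 13.8 CPM in the 28 with Pex5l (18 UMIs) and 29.4 CPM in the 31 without (30 UMIs), a ratio of 0.467 (0.245 to 0.866). Neither difference held throughout. Without nuclei over 3 times the median depth the AON ratio was 2.33 (0.362 to 97.8), and without the pPCx nucleus that held 6 of the 30 UMIs the pPCx ratio was 0.559 (0.286 to 1.07), both within counting error. Hcn3 and Hcn4 did not differ beyond counting error in either class. In AON PNs, the nuclei with Pex5l had a median of 55192.5 UMIs and those without 10060 UMIs, and in pPCx PNs the medians were 42567 and 27702 UMIs.

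A list of 10 genes whose products bind or regulate HCN channels, or that resemble Pex5l in sequence, was compared the same way. Of 7 with at least 20 UMIs, 0 were at least 2-fold higher and 0 at least 2-fold lower in AON than in pPCx PNs (6.66% and 9.82% of all genes). Their median log2 ratio was 0.017 beside -0.059 for all genes. Against GABAergic nuclei, 2 of 7 were at least 2-fold lower in AON PNs (16.1% of all genes) and 0 higher (15.2%), with a median of -0.17 beside -0.061. Grasp, which encodes a scaffold protein of the postsynaptic membrane, had an interval wholly past 2-fold, at a ratio of 0.182 (0.0745 to 0.387). Against all remaining nuclei of the AON library, 3 of 6 were at least 2-fold lower in PNs (23.4% of all genes) and 0 higher (18.2%), with a median of -0.995 beside -0.19. Nedd4l, a ubiquitin ligase gene, at a ratio of 0.311 (0.226 to 0.426), and Ptpra, a tyrosine phosphatase gene, at 0.370 (0.287 to 0.477), had intervals wholly past 2-fold.

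In oligodendrocytes against AON PNs, 5 of 6 list genes were at least 2-fold higher (19.6% of all genes) and 0 lower (30.8%), with a median of 1.11 beside -0.13. Magi2, a membrane scaffold gene, was at 6082 CPM against 2057 CPM, a ratio of 2.96 (2.75 to 3.18). Kctd3, whose product binds HCN3, was at 109 CPM from 20 UMIs against 30.4 CPM. Under scaling by the median of ratios, every log2 ratio of this comparison fell by 0.69, which takes Magi2, Flna, Nedd4l and Ptpra below 2-fold and leaves Kctd3 past it. Pex5, the peroxisomal import receptor that Pex5l is named after, differed by 1.43-fold from 4 UMIs against 17 UMIs. Kcne2 and Lrmp, which encode further accessory proteins of HCN channels, had 3 UMIs or fewer in each class. In astrocytes against AON PNs, 2 of 5 list genes were at least 2-fold higher (24.1% of all genes) and 0 lower (21.6%). These were Nedd4l, at 4.22 (3.00 to 5.94), and Ptpra, at 3.17 (2.39 to 4.20). Oligodendrocytes were below astrocytes for Nedd4l (0.506, 0.308 to 0.807) and Ptpra (0.659, 0.444 to 0.962), and above them for Magi2 (3.74, 3.35 to 4.18) and Kctd3 (3.29, 1.43 to 8.19).

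Of 10 genes for other currents that drive rhythmic firing (T-type calcium channels, the sodium leak channel complex, Scn8a and leak potassium channels), 8 could be compared between PNs of the libraries. At least 2-fold higher in AON PNs were 3 (6.66% of all genes) and lower were 0 (9.82%), with a median of 0.32 beside -0.059. Cacna1g, a T-type calcium channel gene, stood at 26.0 CPM against 3.87 CPM, a ratio of 6.71 (3.09 to 16.1). Its 29 AON UMIs lay in 8 of 25 PNs, with 51.7% in 2 nuclei. Without the 2 nuclei with most Cacna1g in each library the ratio was 5.27 (1.90 to 16.7), an interval no longer wholly past 2-fold. Between AON PNs and GABAergic nuclei, 2 of 10 were higher (15.2% of all genes) and 4 lower (16.1%) in PNs, with a median of -0.84 beside -0.061. Unc80, of the sodium leak complex, at 2.79 (2.50 to 3.12), and Scn8a, a sodium channel gene, at 2.50 (2.09 to 3.00), were higher in PNs. Cacna1i, a further T-type channel gene, at 0.0632 (0.0249 to 0.134), and Kcnk3, a leak potassium channel gene with 1 UMI in PNs, at 0.0219 (0.000544 to 0.127), were lower. In oligodendrocytes 0 of 8 were at least 2-fold higher than in AON PNs (19.6% of all genes) and 4 were lower (30.8%), with a median of -2.00 beside -0.13, and Unc79, Unc80 and Fam155a had intervals wholly past 2-fold. Against all remaining nuclei 6 of 8 were higher (18.2% of all genes) and 0 lower (23.4%) in PNs, with a median of 1.49 beside -0.19, and Unc80, at 19.3 (13.0 to 29.9), Fam155a, at 12.8 (10.4 to 15.8), and Kcnk9, a leak potassium channel gene with 1 UMI in the remaining nuclei, at 15.0 (2.53 to 610), had intervals wholly past 2-fold.

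Of the 6 cyclic nucleotide-gated channel genes, the nearest relatives of the HCN family, only Cngb3 reached 20 UMIs. It was at 42.1 CPM (30.9 to 55.9) in AON PNs, 40.8 CPM (33.0 to 49.9) in pPCx PNs and 22.8 CPM (15.3 to 32.8) in GABAergic nuclei.

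The pPCx PNs divide by the transcription factor gene Ebf1 and the adhesion gene Cntn6, with 37 nuclei at 1433 CPM or more of their sum and 22 at 100 CPM or less. None of the 4 genes differed between these groups beyond counting error. Hcn2 stood at 19.2 and 22.4 CPM, Hcn3 at 10.7 and 7.81 CPM, Hcn4 at 7.67 and 5.85 CPM, and Pex5l at 35.3 and 32.2 CPM, a ratio of 1.10 (0.686 to 1.77). In this comparison 10.2% of 9686 genes were at least 2-fold higher in the first group and 5.58% in the second.

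Across the 4 classes of at least 10 nuclei (AON PNs, GABAergic and remaining nuclei, and pPCx PNs), the 3 genes whose levels lay nearest to Hcn2 among 6784 genes were Dpp8, Ap1g1 and March7, at Euclidean distances of 0.032, 0.048 and 0.057 on centred log2 levels with 10 CPM added. The Hcn2 levels rest on 27, 40, 15 and 48 UMIs in these classes. Their counting intervals are far wider than these distances, so the order of the nearest genes is not resolved. Nearest to Pex5l were Pdgfc, Mmd2 and the antisense gene Gm37459, at distances of 0.413, 0.474 and 0.481. The remaining nuclei pool oligodendrocytes, which held 306 of their 315 Pex5l UMIs, with astrocytes. Nearness in this ranking therefore does not show by itself that a gene is high in oligodendrocytes. Pdgfc, a growth factor gene, was at 39.4 CPM in AON PNs, 71.6 CPM in GABAergic nuclei, 246 CPM in remaining nuclei and 13.7 CPM in pPCx PNs. Hcn3 and Hcn4 had too few UMIs for this ranking.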

How the data were processed

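The nuclei of 2 libraries were measured with the 10x Chromium 3′ v3.1 kit. The authors counted UMIs per gene in each nucleus with Cell Ranger (3.1.0 in the matrix header), and the deposited counts are raw. The submitters' processing notes list the builds GRCh38 and hg19, although the gene identifiers are those of the mouse, and whether intronic reads were counted is not given in the sources used here. Of 31053 identifiers, 30934 were found in GENCODE M21, which gave coordinates and sequences. Nuclei with fewer than 1000 genes were left out. Oligodendrocyte and astrocyte nuclei had at least 3 UMIs of 7 markers each and more of these than of the markers of the other type. UMIs were summed over the nuclei of a class and scaled to CPM. Levels carry exact Poisson intervals, ratios exact conditional intervals and shares exact Clopper-Pearson intervals (95%, scipy 1.17.1, numpy 2.4.6 and pandas 2.3.3 under Python 3.11.15). A gene counted as at least 2-fold different when its log2 ratio, with 0.5 UMI added to each sum, passed 1 and it had at least 20 UMIs over both sums. The ratio intervals were tested only on class sums simulated with counting error. The simulation held no uneven spread of UMIs between nuclei, so it cannot show how the intervals behave under that spread. A count of 0 is given with a floor of 3 UMIs. Doublets were not called, since so few nuclei give no basis for it, and nuclei over 3 times the median depth of their class were left out as an alternative.

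The members and the gene lists were chosen with earlier results of these data known, and 1 gene of the lists is not reported here. Described were the 4 members, the 3 genes nearest in level to each member with at least 100 UMIs, and, from the lists, genes whose ratio interval lay wholly past 2-fold, besides Kctd3, Pex5, Kcne2, Lrmp, Flna and Cngb3, which were named after their values had been seen. The oligodendrocyte and astrocyte comparisons, the levels by Pex5l UMI and the removal of nuclei outside the planned comparisons or by their UMIs of a gene were added after the data had been seen. With 1 library per injection site, no p-value was computed. The ranges of total UMIs were 2969 to 274993 per kept AON nucleus and 6241 to 167296 per kept pPCx nucleus.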

Additional observations from a re-analysis of the deposited data

Results flagged for a closer look

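Outside the kept nuclei, 86 AON barcodes with fewer than 1000 genes still held channel UMIs. Hcn2 was found with 6 UMIs in 6 of these barcodes, 63.4 CPM (23.3 to 138), and Hcn4 with 4 UMIs in 4 of them, 42.3 CPM (11.5 to 108). Both were above the limit of 3 UMIs that a count of 0 allows, and neither count is part of a class level. The kept AON PNs and GABAergic nuclei were at 24.2 and 31.5 CPM for Hcn2 and at 7.16 and 7.08 CPM for Hcn4. The ratio of these barcodes to the PNs was past counting error for Hcn4, at 5.90 (1.30 to 22.0), and within it for Hcn2, at 2.62 (0.886 to 6.49). Hcn3, with 3 UMIs, and Pex5l, with 2 UMIs, did not pass that limit there.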

How the results depend on the processing

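No paired analysis was possible because there is only 1 library for each injection site. Of 196 alternative values for 16 ratios, 176 stayed within the counting interval of the reported ratio, 20 moved outside it and 0 reversed a ratio past counting error. Values stay easily within a wide interval, so this tally does not measure how stable a ratio was. For Hcn3 in AON over pPCx PNs all 12 alternatives stayed within it, yet the ratio passed counting error without the deepest nuclei. On the log2 scale, weighting nuclei equally moved Hcn2 to -0.78 (AON over pPCx PNs), -1.18 (PNs over GABAergic nuclei) and 2.52 (oligodendrocytes over PNs). Leaving out the nucleus with most UMIs of the gene in each class moved Hcn4 to 2.87 (PNs over remaining nuclei), Hcn2 to 0.014 (oligodendrocytes over PNs) and -0.48 (over GABAergic nuclei), and Pex5l to 4.46 (oligodendrocytes over PNs). Leaving out the 2 such nuclei gave Hcn2 0.78 (PNs over remaining nuclei), 0.013 (oligodendrocytes over PNs) and -0.66 (over GABAergic nuclei), and gave Pex5l 0.87 (AON over pPCx PNs), -0.95 (PNs over GABAergic nuclei), -3.24 (PNs over remaining nuclei), 4.78 (oligodendrocytes over PNs) and 3.83 (over GABAergic nuclei). The median of ratios moved Pex5l to -2.29 (PNs over remaining nuclei), 3.34 (oligodendrocytes over PNs) and 3.02 (over GABAergic nuclei), where all log2 ratios shifted by 0.40, -0.69 and -0.54. Without mitochondrial genes and the 50 most abundant genes in the total, all log2 ratios shifted by 0.13 (PNs over GABAergic nuclei) and 0.16 (PNs over remaining nuclei). Pex5l in oligodendrocytes over GABAergic nuclei was 3.90 without the deepest nucleus of each class and 3.91 without nuclei over 3 times the median depth. Pex5l in AON over pPCx PNs ranged from 0.87 to 1.79 over 12 alternatives. The cause of these changes was not tested. The counts of Hcn3 and Hcn4, 8 to 35 UMIs in each neuronal class, limit what could be detected.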
